A study of Mus musculus with 6 samples.

Results

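The antigen presentation genes described here are 52 of the 55401 genes in the deposited expression table. They are the genes whose name begins with H2-, the mouse major histocompatibility complex, together with B2m, Cd74, Ciita, Nlrc5, Tap1, Tap2, Tapbp, Tapbpl, Erap1, Rfx5, Rfxap and Rfxank. H2-Ke6 and the genes whose name ends in -ps were left out. By role, 2 are classical class I heavy chains (H2-K1 and H2-D1), 7 are class I partners, 27 are class Ib genes, 11 are class II genes and 5 are class II partners. 29 of the 52 reached 10 normalized counts in 3 or more libraries, the filter used for testing, and 14 had no more than 3 reads in any of the 6 libraries.

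Total RNA was sequenced from bone marrow cells of 6 mice, each a secondary recipient of a Hoxa9/Meis1 leukaemia. The Lym group (mice 62, 63 and 87) is labelled as lymphoid cells, from mice that had received lymphoid leukaemic stem cells. The Lin- group (mice 56, 57 and 91) is labelled as Lin-cKit+ progenitor cells, from mice that had received Lin- leukaemic stem cells. All 6 mice carry the Hoxa9/Meis1 leukaemia, so neither group is a healthy control, and strain, age, donor and the share of recipient cells in each sample are not given in the sources used here. The series compares the lymphoid with the Lin- cells, and differences below are Lym minus Lin-. Where 3 values are given for a group, they follow the order of its mice, 62, 63, 87 for Lym and 56, 57, 91 for Lin-.

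Class I molecules, a heavy chain paired with B2m, show peptides from inside the cell to cytotoxic T cells and are made by nearly all nucleated cells. Class II molecules, an alpha and a beta chain, show peptides from endosomes to helper T cells and are made mainly by B cells, dendritic cells and macrophages. Their genes are switched on by Ciita together with the Rfx complex, while Nlrc5 plays the matching part for class I. Class Ib molecules resemble the classical heavy chains, vary less between individuals and serve more specialised receptors.

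Reads assigned to genes came to 18537700 to 22634286 per library. Deposited values are normalized counts, reads divided by 1 size factor per library, and a floor of 3 reads equals a normalized count of 2.64 to 3.36, which covers counting error only. Il7r, Dntt, Ebf1, Rag1 and Rag2, genes of early lymphoid cells, summed to 1165, 241 and 62.9 in Lym, against 22.1, 44.0 and 17.5 in Lin-. By these sums Lym mice 63 and 87 both lay far nearer to the Lin- libraries than to Lym mouse 62, and mouse 87 was the lowest of the Lym libraries. For 4 of the 5 genes, all but Rag2, every Lym library including that of mouse 87 exceeded every Lin- library. Some of these values rest on few reads. Rag1 had 2 reads in Lym mouse 63 and 2 in Lym mouse 87, under the floor, and Dntt had 5 in Lym mouse 87. Results that rest on the library of mouse 87 are also given without it. Kit, Cd34, Flt3 and Ptprc, markers of blood progenitors and leukocytes, summed to 54187, 49535 and 28310 in Lym, against 26086, 27083 and 27160 in Lin-, so they were not higher in the group labelled as progenitors. Cd34 and Flt3 were higher in every Lym library than in any Lin- library, and Kit, at 18902, 12027 and 3158 in Lym and 4953, 6066 and 3420 in Lin-, overlapped.

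Promoters of class II genes carry a shared arrangement, an X box bound by the Rfx complex followed by a Y box, and class I promoters carry a kappa B type site and an interferon response site. The bases just before the start of 5 genes are shown as chosen examples of these arrangements. They run from 250 to 6 bases before the RefSeq start on GRCm38.p6 and are written 5′ to 3′ on the gene's strand. Capitals in H2-Aa, H2-Eb1 and H2-Ob mark the X type letters GNAAC and the Y type letters GATTGG where they stand as a pair, 20 to 30 bases apart. Matches outside the pair are left in lower case. Capitals in H2-K1 mark GGGATTCC and the interferon type letters GAANNGAAA or GAAANNGAA, on either strand. In B2m they mark the interferon type letters alone, since GGGATTCC had no match there.
H2-Aa, chr17:34287829-34288073, minus strand: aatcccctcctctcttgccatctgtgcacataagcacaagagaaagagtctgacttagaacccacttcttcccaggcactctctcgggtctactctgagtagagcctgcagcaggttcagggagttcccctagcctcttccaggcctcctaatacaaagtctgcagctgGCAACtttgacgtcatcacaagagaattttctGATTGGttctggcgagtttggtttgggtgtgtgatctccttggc
H2-Eb1, chr17:34305617-34305861, plus strand: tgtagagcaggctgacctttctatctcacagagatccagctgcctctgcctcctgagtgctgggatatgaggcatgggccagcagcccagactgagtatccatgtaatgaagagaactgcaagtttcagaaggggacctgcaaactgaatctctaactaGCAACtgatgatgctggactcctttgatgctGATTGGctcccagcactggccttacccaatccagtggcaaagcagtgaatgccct
H2-Ob, chr17:34238655-34238899, plus strand: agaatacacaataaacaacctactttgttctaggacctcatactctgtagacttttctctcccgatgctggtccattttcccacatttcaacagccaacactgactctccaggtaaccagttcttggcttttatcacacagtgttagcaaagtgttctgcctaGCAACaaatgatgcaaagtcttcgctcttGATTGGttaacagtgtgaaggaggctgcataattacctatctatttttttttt
H2-K1, chr17:34000353-34000597, minus strand: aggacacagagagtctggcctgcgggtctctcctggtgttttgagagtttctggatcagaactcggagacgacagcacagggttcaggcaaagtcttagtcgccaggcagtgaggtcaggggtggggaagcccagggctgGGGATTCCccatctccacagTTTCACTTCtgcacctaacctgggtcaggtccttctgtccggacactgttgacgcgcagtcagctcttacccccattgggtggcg
B2m, chr2:122147437-122147681, plus strand: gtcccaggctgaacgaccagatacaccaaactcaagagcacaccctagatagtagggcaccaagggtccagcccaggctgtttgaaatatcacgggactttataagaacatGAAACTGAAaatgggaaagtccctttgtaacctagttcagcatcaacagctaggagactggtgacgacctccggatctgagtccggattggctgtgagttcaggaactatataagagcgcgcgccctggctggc

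The letters GNAAC and GATTGG, 20 to 30 bases apart in that order on either strand, were found in 6 of the 8 class II genes with a promoter in the RefSeq table. These were H2-Aa, H2-Eb1, H2-Eb2, H2-Oa, H2-Ob and H2-DMb1, with 24 to 27 bases between the boxes. The pair was in 0.651% of 32851 promoters of the same length and in 0 of the other 28 matched antigen presentation genes. Cd74, on chromosome 18, was not among the genes looked up. GATTGG alone was in 28 of the 36 matched genes, H2-K1, H2-D1 and B2m among them, against 16.1% of all promoters. GGGATTCC was in H2-K1, H2-D1, H2-Q6 and H2-Q7 and in 1.06% of all promoters, and the interferon type letters were in 12 of the 36 genes and 14.9% of all promoters. The letters were chosen with these promoters in view, so the counts are a description and a match is not a shown site. Nor does the lack of a match show that a promoter lacks such a site.

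The classical class I heavy chains and B2m were above 10000 normalized counts in every library, and their levels in the groups overlapped. H2-D1 (chromosome 17, 35262730 to 35267499 on GRCm38) had normalized counts of 21497, 19142 and 21701 in Lym, against 21129, 21724 and 24488 in Lin-. H2-K1 (chromosome 17, 33996017 to 34000347) stood at 19967, 13357 and 15684 in Lym, against 15805, 17598 and 17939 in Lin-. B2m, the light chain of every class I molecule (chromosome 2, 122147686 to 122153083), stood at 16486, 11951 and 13062 in Lym, against 16299, 14972 and 16592 in Lin-. Lym mouse 63 was the lowest library for all 3 genes, and the highest was Lin- mouse 91 for H2-D1 and B2m and Lym mouse 62 for H2-K1. The highest library exceeded the lowest 1.28-fold for H2-D1, 1.39-fold for B2m and 1.49-fold for H2-K1, against a median of 1.41-fold over the 232 genes with a mean of at least 10000. On the log2 scale the group differences were -0.11 ± 0.12 for H2-D1 (SE, 95% interval -0.38 to 0.15), -0.08 ± 0.16 for H2-K1 (-0.44 to 0.27) and -0.22 ± 0.14 for B2m (-0.54 to 0.10). None of the 3 passed, with limma adjusted p = 0.747, 0.864 and 0.59. Per kilobase of exon, the mean level over the 6 libraries was 17318 normalized counts for B2m, 8381 for H2-D1 and 5693 for H2-K1.

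The peptide loading genes were expressed in every library, with mean levels per kilobase of exon from 313 normalized counts for Tapbpl to 1329 for Tap2. Tap1, which with Tap2 forms the transporter that carries peptides into the endoplasmic reticulum, stood at 6528, 5031 and 5268 in Lym, against 4037, 4955 and 5760 in Lin-. Tap2 stood at 6751, 5656 and 4199 in Lym, against 4302, 4654 and 4576 in Lin-. Lym mouse 62 was the highest library for both, and for Tap2 Lym mice 62 and 63 exceeded every Lin- mouse while Lym mouse 87 was the lowest of all. Tap2 differed by 0.27 ± 0.17 on the log2 scale (SE, limma adjusted p = 0.587), and by 0.45 without Lym mouse 87 (limma adjusted p = 0.0408). Without Lym mouse 62 it differed by 0.11 (limma adjusted p = 0.918).

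Tapbp, the tapasin that holds empty class I molecules at the transporter, stood at 3708, 3285 and 2857 in Lym, against 3395, 3151 and 2981 in Lin-. Its relative Tapbpl, an editor of bound peptides, stood at 987, 680 and 636 in Lym, against 635, 892 and 590 in Lin-. Erap1, which trims peptides to length in the endoplasmic reticulum, stood at 4390, 3084 and 2859 in Lym, against 3414, 3265 and 2759 in Lin-. Lym mouse 62 was the highest library for all 3, and the remaining Lym values lay among the Lin- values or, for Tapbp, partly below them. Nlrc5, the class I transactivator (chromosome 8, 94434356 to 94527272), stood at 2422, 1806 and 3137 in Lym, against 2056, 2441 and 3106 in Lin-, highest in 1 mouse of each group. The log2 differences of the 7 class I partners ran from -0.22 to 0.27 with a median of 0.11, and the smallest limma adjusted p among them was 0.587. Exons of Tapbp share 25.3% of their 38-base stretches with other genes, chiefly the overlapping Gm19412, and the counting of such reads is not stated.

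**Figure D1:**
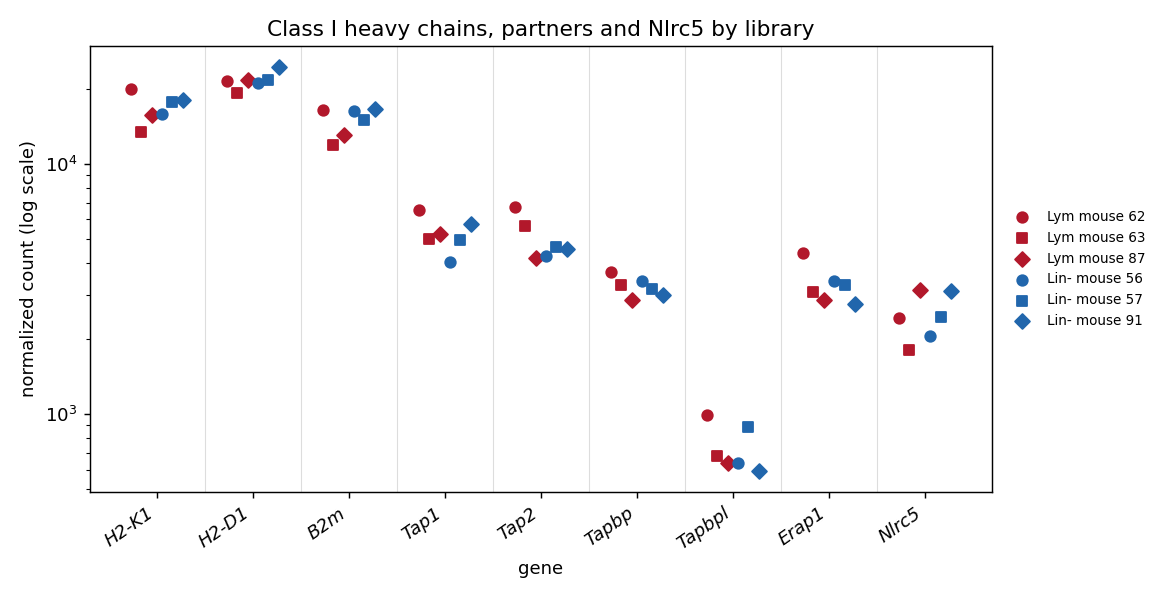
Normalized counts (log scale) of the classical class I heavy chains, B2m, the peptide loading genes and Nlrc5, 1 point per library, Lym in red and Lin- in blue. The groups overlap for all 9 genes, and Lym mouse 62 is the highest library for H2-K1, Tap1, Tap2, Tapbp, Tapbpl and Erap1.

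Of the 27 class Ib genes, 10 passed the filter, 12 were at or under the floor in all 6 libraries and 6 of those were listed at 0 throughout. H2-Q4 had the highest mean, at 3330, 2053 and 2068 in Lym, against 1649, 2311 and 2581 in Lin-. H2-Q6 stood at 1420, 841 and 2002 in Lym, against 917, 1151 and 2508 in Lin-. H2-Q7, a gene of the Qa-2 antigen but not the only one, stood at 1151, 385 and 758 in Lym, against 677, 875 and 1037 in Lin-. For H2-Q6 the 2 highest libraries were Lym mouse 87 and Lin- mouse 91, the same as for Nlrc5, and for H2-Q7 the extremes were both Lym mice, 62 and 63.

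H2-T23, whose product Qa-1 presents leader peptides of other class I chains to natural killer cell receptors, stood at 1522, 1016 and 917 in Lym, against 979, 1131 and 901 in Lin-. H2-T22, a ligand of some gamma delta T cells, stood at 1022, 869 and 1055 in Lym, against 985, 1058 and 1039 in Lin-. H2-M3, which presents peptides that begin with formyl methionine, stood at 832, 645 and 652 in Lym, against 650, 914 and 807 in Lin-. The groups overlapped for each of these genes. H2-Q5, H2-T10, H2-T24 and H2-K2, the remaining genes that passed, had means over the 6 libraries of 516, 247, 62.6 and 53.8. Log2 differences of the 10 genes ran from -0.29 for H2-Q7 to 0.50 for H2-K2, with 5 positive and 5 negative, a median of 0.01 and a smallest limma adjusted p of 0.713. The summed class Ib level was 8440 ± 1979 in Lym and 8256 ± 1680 in Lin- (SD, n = 3 each). Near-identical copies make the single values uncertain, since 46.0% of the 38-base stretches of H2-Q4, 44.2% of H2-Q6, 62.1% of H2-T22 and 59.0% of H2-T10 also occur in another gene. H2-K2, H2-Q5 and H2-T10 are annotated as pseudogenes or polymorphic pseudogenes in GENCODE M21.

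**Figure D2:**
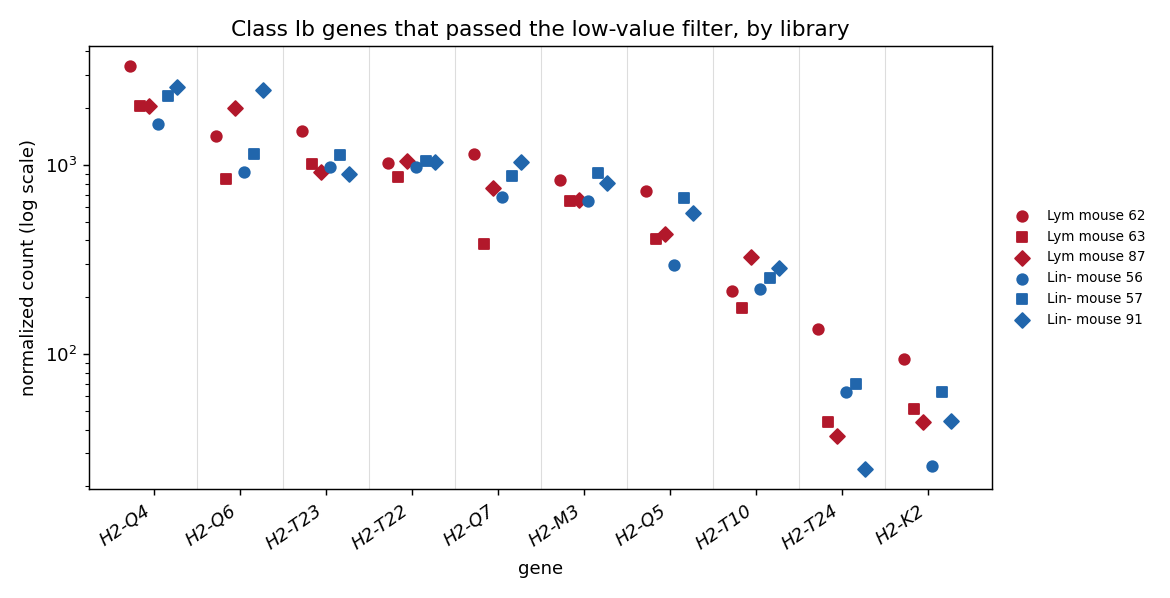
Normalized counts (log scale) of the 10 class Ib genes that passed the low-value filter, ordered by mean, 1 point per library, Lym in red and Lin- in blue. The groups overlap for every gene shown, from H2-Q4, at 1649 to 3330, down to H2-K2.

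Class II genes formed a set expressed in every library and a set seen mainly in Lym mice 62 and 63. Cd74, the invariant chain that guides class II molecules to endosomes, stood at 108, 687 and 38.1 in Lym, against 2.65, 2.64 and 13.4 in Lin-. Every Lym library exceeded every Lin- library, and Lin- mice 56 and 57 were at the floor. The log2 difference was 4.39 ± 0.99 (SE, 95% interval 2.12 to 6.65), with limma adjusted p = 0.42. DESeq2 on the recovered reads gave 5.49 ± 1.33 (SE), with an adjusted p of 0.00771. Without Lym mouse 87 the difference was 5.31 (limma adjusted p = 0.00871), and without Lym mouse 63 it was 3.26 (limma adjusted p = 0.781). In bulk samples such as these, fewer cells of a type and less RNA per cell cannot be told apart.

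H2-Aa, the alpha chain of the A molecule (chromosome 17, 34282744 to 34287823), stood at 42.6, 265 and 1.91 in Lym, against 0, 7.04 and 6.19 in Lin-. H2-Eb1, the beta chain of the E molecule (chromosome 17, 34305867 to 34316674), stood at 32.5, 222 and 0.953 in Lym, against 0, 0.88 and 0 in Lin-. For both genes Lym mice 62 and 63 stood above the other 4 libraries, and Lym mouse 87 was under the floor. Neither gene passed the filter, so no limma value is given. H2-Eb2 was above the floor in Lin- mouse 57 alone, at 8.80. In the 2 Lym libraries with these chains the genes kept similar proportions: Cd74 was 2.53 and 2.59 times H2-Aa in mice 62 and 63, and H2-Eb1 was 0.763 and 0.835 times H2-Aa.

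H2-Ab1, the beta chain that pairs with H2-Aa (chromosome 17, 34257689 to 34269419), stood at 756, 839 and 259 in Lym, against 270, 462 and 499 in Lin-. It was thus well above the floor in Lym mouse 87 and Lin- mouse 56, where its partner chain was not. The ratio of H2-Ab1 to H2-Aa was 17.7 in Lym mouse 62, 3.16 in Lym mouse 63, 65.6 in Lin- mouse 57 and 80.7 in Lin- mouse 91. The ratio of H2-Ab1 to H2-Ob, which ends 3274 bases before it on the same strand, lay between 0.483 and 1.38 in all 6 libraries. The group difference of H2-Ab1 was 0.47 ± 0.44 (SE, limma adjusted p = 0.719), and 1.00 without Lym mouse 87 (limma adjusted p = 0.043). It was 0.23 without Lym mouse 62, 0.16 without Lym mouse 63 and 0.19 without Lin- mouse 56 (limma adjusted p = 0.951, 0.949 and 0.947).

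H2-DM, the editor that exchanges the invariant chain fragment for peptide, was expressed in both groups at overlapping levels. Its alpha chain H2-DMa stood at 1481, 1489 and 1139 in Lym, against 1275, 1367 and 1290 in Lin-. The beta chain H2-DMb1 stood at 232, 417 and 279 in Lym, against 356, 296 and 352 in Lin-. H2-DMb2, a second beta chain gene, was at 8.97, 71.6 and 48.6 in Lym, against 22.9, 55.4 and 39.2 in Lin-. The beta chain genes share 27.8% and 32.1% of their 38-base stretches with other genes, mostly with each other, and the sign of the group difference turned with the setting for both (-0.15 and -0.18 in limma; 0.14 for H2-DMb2 in edgeR and in DESeq2; 0.03 for H2-DMb1 and 0.65 for H2-DMb2 without Lym mouse 62). H2-DO restrains H2-DM and is best known from B cells. Its alpha chain H2-Oa stood at 104, 163 and 98.1 in Lym, against 70.6, 85.4 and 70.1 in Lin-, with groups that did not overlap. Its beta chain H2-Ob (chromosome 17, 34238903 to 34254414) stood at 1564, 894 and 316 in Lym, against 317, 390 and 363 in Lin-, so that Lym mice 62 and 63 exceeded the other 4 libraries and Lym mouse 87 was the lowest. The differences were 0.65 ± 0.31 for H2-Oa and 1.10 ± 0.49 for H2-Ob (SE, limma adjusted p = 0.509 and 0.49). Without Lym mouse 87 that of H2-Ob was 1.73 (limma adjusted p = 0.00531), and without Lym mouse 62 it was 0.58 (limma adjusted p = 0.853). H2-Oa shares 17.3% of its 38-base stretches with the overlapping BC051537.

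Ciita, the class II transactivator, was read in 1 library only: 48 reads, a normalized count of 53.7, in Lym mouse 63, and 0 in the other 5, where a count of 0 allows up to 3 reads. That library was also the highest for Cd74, H2-Aa, H2-Ab1 and H2-Eb1. The Rfx genes, whose products hold Ciita at the X box, were expressed in all 6 libraries. Rfx5 stood at 1126, 993 and 1067 in Lym, against 700, 1006 and 874 in Lin-. Rfxap stood at 631, 704 and 655 in Lym, against 619, 545 and 615 in Lin-. Rfxank stood at 373, 351 and 304 in Lym, against 255, 240 and 244 in Lin-. The groups did not overlap for Rfxap and Rfxank, and Lym mice 62 and 87 exceeded every Lin- mouse for Rfx5. The Rfxank difference was 0.47 ± 0.18 (SE, limma adjusted p = 0.462), Rfx5 differed by 0.32 ± 0.16 and Rfxap by 0.16 ± 0.14. Rfxank shares 32.7% of its 38-base stretches with other genes, mostly the overlapping Nr2c2ap. Rfx5 shares 23.3% with the overlapping B230398E01Rik.

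**Figure D3:**
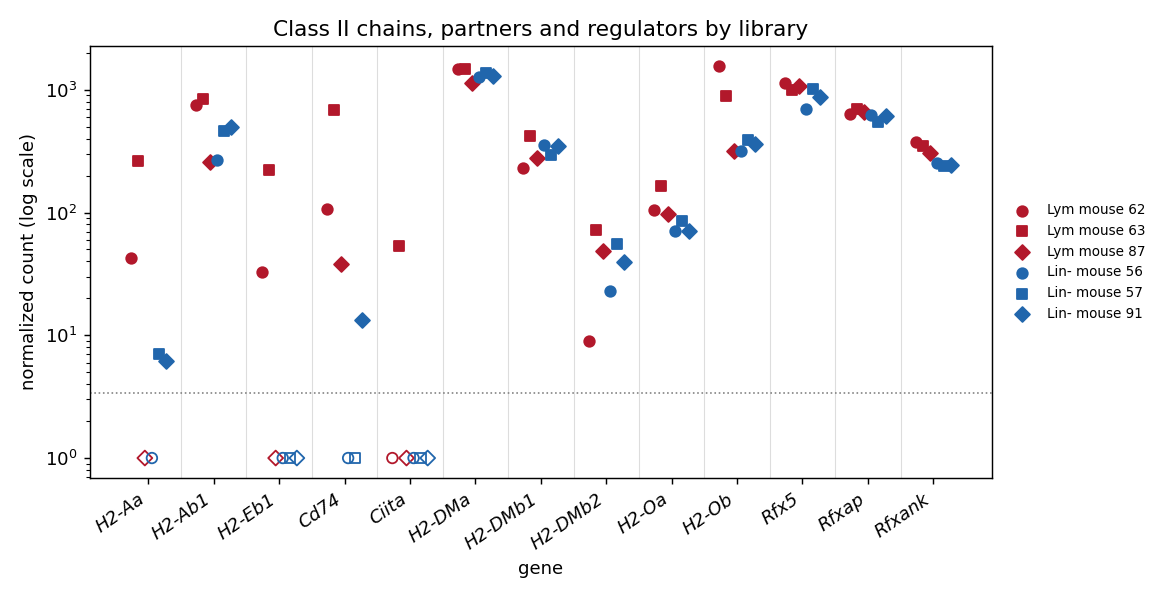
Normalized counts (log scale) of class II chains, partners and regulators, 1 point per library, Lym in red and Lin- in blue. Open symbols on the lowest line stand for 3 reads or fewer and are not drawn at their value, and the dotted line is the highest floor of the 6 libraries, 3.36. H2-Aa and H2-Eb1 stand high in Lym mice 62 and 63 only, Ciita is above the floor in Lym mouse 63 only, and the H2-DM and Rfx genes are present in all 6 libraries.

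Over the 29 tested genes 18 log2 differences were positive and 11 negative, with a median of 0.11, against a median of -0.01 over all 14273 genes tested. By role the medians were -0.10 for the classical class I chains, 0.11 for the class I partners, 0.01 for class Ib, 0.26 for class II and 0.39 for the class II partners. 0 of the 29 passed a limma adjusted p of 0.05, where 0% of all genes tested did. 2 of the 29, Cd74 and Rfxank, had an unadjusted limma p under 0.05, against 10.2% of all genes tested. In 4 of the 29 (Cd74, H2-Oa, Rfxank and Rfxap) every Lym library was above every Lin- library, against 8.49% of all genes, and in 0 every Lym library was below, against 7.08%. The unadjusted count is a smaller share than that of all genes, and the count of genes apart with Lym higher is a larger one, by fewer than 2 genes.

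The calls depended on the method and on the library of Lym mouse 87. Without it limma called 4 of the 29, Cd74, H2-Ab1, H2-Ob and Tap2, all higher in Lym, where 9.57% of all genes were called. With library weights estimated from the data, limma called Cd74 and H2-Ob, where 4.62% of all genes were called. DESeq2 on the recovered reads of all 6 libraries called Cd74 alone among 33 of the 52 genes with an adjusted p, where 1.16% of all genes were called. Without Lym mouse 87, edgeR called 3 of the 29 (Cd74, H2-Ob and Tap2), where 8.56% of all genes were called. DESeq2 without that mouse called 6 of the 33 (Cd74, H2-Aa, H2-Ab1, H2-Eb1, H2-Ob and Tap2), where 12.3% of all genes were called. The authors' deposited table calls 101 of its 31604 genes with an adjusted p, or 0.32%, and 0 of the 45 antigen presentation genes with a p there. Its unadjusted p was under 0.05 for Cd74, H2-Ob and Rfxank, 3 of the 45 genes with a p there, against 4.87% of all genes in that table. In none of these settings did the antigen presentation genes called exceed the share of all genes by as many as 2 genes. Nor did those under the unadjusted p in the authors' table. Under an unadjusted p of 0.05, DESeq2 on the recovered reads of all 6 libraries had 5 of the 45 antigen presentation genes with reads. Over all genes it had 1872 of 31604, a smaller share. Without Lym mouse 87 it had 8 antigen presentation genes, against 3953 of 29112 over all genes. How many antigen presentation genes had reads in that setting was not counted. The bound of 2 genes above does not cover these unadjusted DESeq2 counts. The authors' deposited table gives Cd74 a log2 difference of 0.53 ± 0.21 (SE, adjusted p = 0.589), far below the limma value and that of DESeq2 on the recovered reads. It gives H2-Ob one of 0.63 ± 0.29 (adjusted p = 0.866), against 1.375 in DESeq2 on the recovered reads. For the abundant H2-D1 the deposited value was -0.10 and that of DESeq2 on the recovered reads -0.11. For H2-Eb1, a low gene, they were 0.22 and 8.00. The cause of the gap was not tested.

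**Figure D4:**
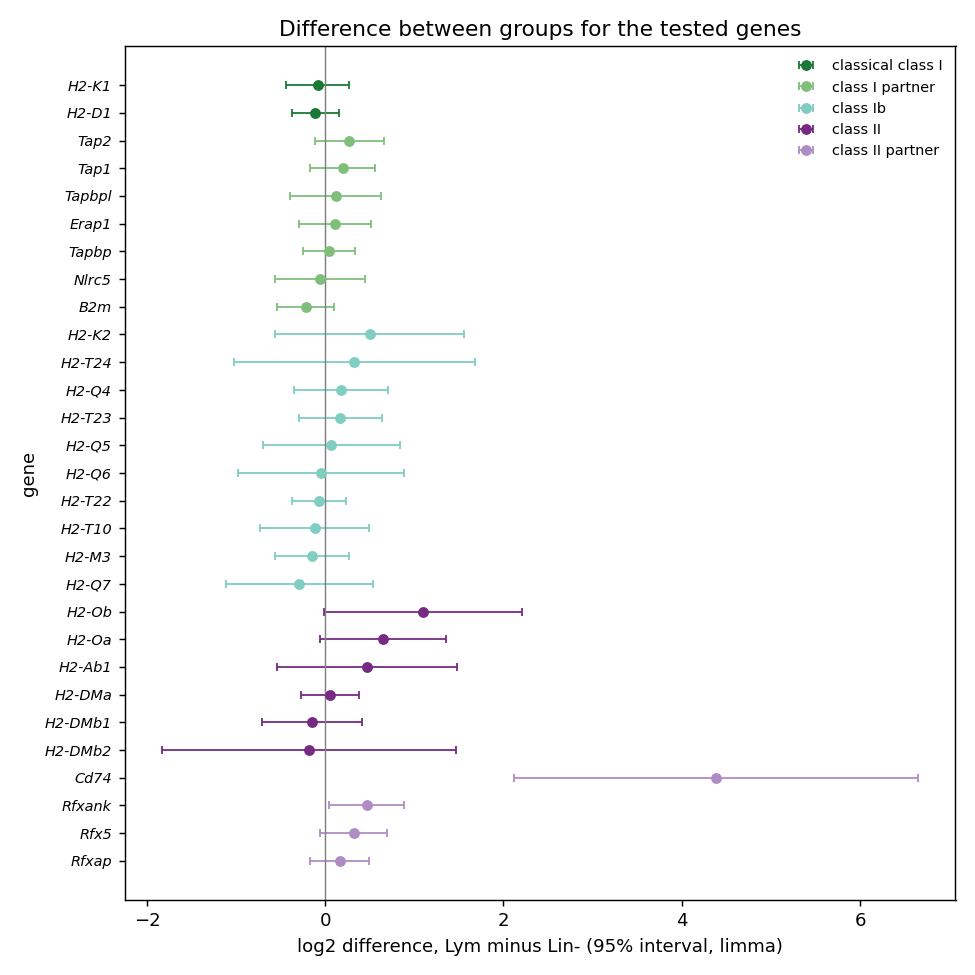
Log2 difference, Lym minus Lin-, with its 95% interval from limma for the 29 tested genes, coloured by role. The intervals of Cd74 (2.12 to 6.65) and Rfxank (0.05 to 0.89) do not reach 0 and the other 27 do, with no adjustment for the number of genes.

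Genes that act around these molecules were described from 4 lists, with 0 limma calls in each. Over all genes tested, 10.2% had an unadjusted p under 0.05, as above, and the counts below are to be read against that share. Among genes of class II peptide handling, costimulation and promoter cofactors, 12 of 15 were tested, 1 had an unadjusted p under 0.05 and the median log2 difference was -0.12. That gene was Ctsb, an endosomal protease, at 4457 ± 725 in Lym and 6311 ± 948 in Lin- (SD, n = 3 each). Its limma difference was -0.50 ± 0.16 (SE, adjusted p = 0.426). Ctss, the protease that cleaves the invariant chain, differed by -0.62 ± 0.31 (SE, limma adjusted p = 0.523), and Creb1, a factor of the X box region, by 0.26 ± 0.15 (SE). The 12 tested genes listed for class I peptide supply and folding had a median of -0.19, and 3 had an unadjusted p under 0.05. These were the chaperone partner Pdia3 (-0.34 ± 0.11) and the chaperone Hspa5 (-0.29 ± 0.12), lower in Lym, and Irgm1 (1.00 ± 0.36), higher in Lym (log2 ± SE). Irgm1, an interferon-induced GTPase, was on the list but is not itself a supply or folding gene. The abundant chaperones Canx and Calr differed by -0.20 ± 0.13 and -0.06 ± 0.14.

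In interferon signalling 13 of 14 genes were tested and 3 had an unadjusted p under 0.05, with a median of 0.14. The interferon gamma receptor chain Ifngr1 stood at 7925 ± 531 in Lym and 10423 ± 598 in Lin- (SD, n = 3 each), with groups that did not overlap and a log2 difference of -0.40 ± 0.11 (SE, limma adjusted p = 0.42). Irf1, a factor that binds interferon response sites, stood at 1512, 1270 and 879 in Lym, against 612, 891 and 624 in Lin-, with a difference of 0.77 ± 0.23 (SE, limma adjusted p = 0.423). Irf2 differed by 0.50 ± 0.21 and Irf8, a factor of myeloid and dendritic lineages, by 0.14 ± 0.18. Among class I-like genes outside the complex 6 of 11 were tested, with 1 unadjusted p under 0.05 and a median of -0.24. This was Cd1d2, a lipid-presenting molecule, at 35.9, 28.0 and 26.7 in Lym, against 3.53, 12.3 and 4.13 in Lin- (log2 difference 2.02 ± 0.56, SE, limma adjusted p = 0.42). Its neighbour Cd1d1 differed by 0.39 ± 0.23 and Fcgrt, the neonatal Fc receptor, by -0.75 ± 0.63.

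Some markers of other cells that make class II molecules were also high in Lym mice 62 and 63. Itgax, an integrin of dendritic cells, stood at 1286, 525 and 40.0 in Lym, against 24.7, 44.0 and 29.9 in Lin-. Clec10a, a lectin of dendritic cells and macrophages, stood at 926, 587 and 19.1 in Lym, against 47.6, 101 and 60.9 in Lin-. Clec9a, a receptor of conventional dendritic cells, stood at 46.0, 69.4 and 0.953 in Lym, against 0, 12.3 and 2.06 in Lin-. The order within Lym differed between genes, since Itgax, Clec10a and H2-Ob were highest in mouse 62, and Clec9a, Cd74, H2-Aa, H2-Ab1 and H2-Eb1 in mouse 63. Zbtb46, a defining factor of conventional dendritic cells, was highest in Lym mouse 63, at 15.7, with 6.67 in Lym mouse 87, 1 read in Lym mouse 62 and 0 in Lin-. The 8 conventional dendritic cell markers summed to 3729 to 4758 in Lym and 3562 to 4201 in Lin-, and Cd209a was at or under the floor throughout. Sirpa, a receptor of myeloid cells that made up most of that sum, stood at 2493, 3458 and 3661 in Lym, against 3575, 3399 and 4108 in Lin-, lowest in Lym mouse 62 (log2 difference -0.22). The 6 plasmacytoid dendritic cell markers summed to 3117 to 5817 in Lym and 2428 to 2902 in Lin-, with Siglech at 81.9 and 54.8 in Lym mice 62 and 63 and 0 elsewhere. Most of that sum was Tcf4, a transcription factor also made in other cells, at 5378, 4091 and 2831 in Lym, against 2449, 2652 and 2128 in Lin-. Bst2 was lowest in Lym mouse 63 and its groups overlapped (log2 difference -0.03), Spib was at most 10.6 in any library, and Klk1 was listed at 0.

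Of 8 mature B cell markers, Pax5, Ms4a1 and Fcer2a were at or under the floor in all 6 libraries. The summed level of the 8 was 43.6 to 298 in Lym and 46.6 to 415 in Lin-, mostly Cd79b, and was lowest in Lym mouse 63 within its group, where Cd74 was highest. The 10 macrophage and monocyte markers summed to 7156 to 11086 in Lym and 11756 to 15186 in Lin-, with C1qa and C1qb at or under the floor. The part of these cells in the class II values was not tested. T cell markers were at or under the floor for 6 of 8 genes, with sums up to 41.5, and erythroid markers summed to at most 5.16. Natural killer cell markers summed to 38.1 to 169 in Lym and 55.6 to 275 in Lin-, with Ncr1 and Eomes at or under the floor. Neutrophil markers summed to 40.4, 299.9 and 61.0 in Lym, against 65.3, 180 and 32.0 in Lin-, mostly Mmp8 in the highest libraries.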

How the data were processed

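Values come from total RNA libraries of 3 Lym and 3 Lin- mice, 1 per mouse, made with a stranded kit, 2 ng of RNA (1 ng in Lym mouse 62) and 12 PCR cycles, per the labels' protocols. Reads were trimmed (Trim Galore 0.6.4), aligned to GRCm38.p6 (STAR 2.6.1d), assigned to genes (featureCounts 1.6.4) and analysed with DESeq2, the tools listed in the submitters' processing notes. The annotation release, and whether counting used the strand, are not given in the sources used here. For each library the authors deposited a normalized signal, the count of a gene over a size factor common to all genes. All checked values were whole multiples of their library's step (100% within a tolerance of 0.01, up to 10000), so reads were recovered. Per the file headers the authors also deposited a log2 fold change, its standard error (a score column) and a p-value with its adjusted form. Positive values there mean higher in Lin-, and the sign was turned here. The table holds 0 other columns of per-sample values.

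Differences were fitted with limma 3.58.1 (R 4.3.3, trend option) on log2(normalized count + 2) over 14273 genes with at least 10 in at least 3 libraries, and calls were made at a Benjamini-Hochberg adjusted p of 0.05. The offset of 2 understates changes of low genes. No source names a shared donor, so mice were treated as independent. edgeR 4.0.16 and DESeq2 1.42.0 on recovered reads, limma-voom, other scalings, filters and pseudocounts, library weights and leaving out each mouse were alternatives. Python 3.11.15 read the tables, and matplotlib 3.10.9 drew the figures. Positions matched GENCODE M21 for all 52 genes, and 36 matched the RefSeq promoter table. Genes on chromosome 18 were left out of that match, and Cd74 was the gene concerned. The 32851 promoters used for comparison were not filtered by chromosome.

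All genes that passed the filter are named, in order of role. Values in every library are given for the classical class I genes, B2m, the loading genes, Nlrc5, the 6 class Ib genes with the highest mean, the class II chains, H2-DM, H2-DO and the class II partners. From each of the 4 pathway lists the genes with the 2 smallest p and the 2 highest means are named. Hspa5, Irf2 and the single cell type markers were picked after their values were seen. The members and lists were chosen with earlier results of these data known.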

Additional observations from a re-analysis of the deposited data

How the results depend on the processing

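No paired analysis was possible because the labels give the mice no shared numbers. The number of genes past the threshold was 0 in limma, edgeR and limma-voom, with 1459, 1444 and 1362 genes at an unadjusted p under 0.05. It was 203 with DESeq2, 1 with a pseudocount of 8, 5 with no filter and 660 with library weights, and 0 to 1366 with 1 mouse left out. With Lym mouse 87 left out, alternatives chosen after seeing the data gave 1222 with edgeR and 2047 with DESeq2. Among the antigen presentation genes the count was 0, against 1 with DESeq2, 2 with library weights, 0 to 4 with 1 mouse left out, and 3 with edgeR and 6 with DESeq2 without Lym mouse 87. Of genes that kept their sign, Cd74 ran from 3.259 to 5.311, H2-Ob from 0.58 to 1.73, H2-Ab1 from 0.159 to 1.003 and Tap2 from 0.112 to 0.455 with 1 mouse left out. Under other settings than leaving out a mouse in limma, 8 of 317 single-gene differences changed sign. With library weights these were H2-DMb1 at 0.088, H2-DMb2 at 0.358, H2-Q4 at -0.0001 and H2-Q5 at -0.126. H2-DMb2 was also at 0.138 with edgeR and 0.137 with DESeq2, and at 0.047 and 0.044 in these without Lym mouse 87. With 1 mouse left out 24 of 174 changed sign, and the ranges were -0.077 to 0.232 for Erap1, -0.012 to 0.181 for H2-DMa, -0.387 to 0.034 for H2-DMb1, -0.725 to 0.649 for H2-DMb2, -0.239 to 0.05 for H2-K1, -0.056 to 0.309 for H2-Q4, -0.277 to 0.313 for H2-Q5, -0.345 to 0.38 for H2-Q6, -0.651 to 0.136 for H2-Q7, -0.366 to 0.08 for H2-T10, -0.123 to 0.016 for H2-T22, -0.05 to 0.315 for H2-T23, -0.244 to 0.669 for H2-T24, -0.256 to 0.142 for Nlrc5, -0.05 to 0.138 for Tapbp and -0.076 to 0.298 for Tapbpl. 13 of the 29 tested genes changed sign in no setting. The ratio of summed class II levels, Lym to Lin-, was 1.41, with 1.26 without Lym mouse 63 and 1.69 without Lym mouse 87. With 3 mice a group and low counts, values of Ciita, H2-Aa and H2-Eb1 rest on 1 or 2 libraries. The cause of these changes was not tested.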
